A study of Mus musculus with 16 samples.

Results

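Genes of 4 families that mouse placenta is known to express, the prolactin-related (Prl), Rhox homeobox, pregnancy-specific glycoprotein (Psg) and placental cathepsin families, were described together with Plac1 and Plac8. The members were chosen by gene symbol, with 1 probe set for each gene, and numbered 47 of the 19938 genes measured: 19 Prl genes, 8 Rhox genes, 12 Psg genes, 6 cathepsin genes and both Plac genes. Of the 90 genes of these names in a RefSeq gene table, 43 had no probe set assigned to them alone and were not analysed here, among them Rhox5, Prl3d1, Prl3b1, Cts3 and Ctsm. The group was picked because some of its genes were much higher in iPSC-derived than in primary cells. That difference is therefore given below as a description, without a test.

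Expression was measured on 16 Affymetrix arrays. Per the labels the mouse cells were midbrain dopaminergic neurons, the neurons that supply the forebrain with dopamine. All 4 groups were of the mixed strain C57BL/6 x 129/Ola and of the genotype Pitx3GFP/+, in which green fluorescent protein marks cells that use Pitx3, a transcription factor of these neurons. Treated cells (5 biological replicates) were derived from induced pluripotent stem cells (iPSCs) in culture with the recombinant human proteins WNT1, a ligand of Wnt receptors, and DKK3, which belongs to the Dickkopf family of secreted factors, and control cells (5 biological replicates) were derived without them. Primary cells came from the ventral midbrain of embryos at day E14.5 or E13.5, each stage with 3 arrays that the labels call technical replicates, so that each stage was 1 sample. The design text names cell sorting for GFP in both kinds of cells. Neither the number of iPSC lines nor the number of cultures or embryos was given in the sources used here.

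The trophoblast, the outer lineage of the embryo, builds the placenta's invasive giant cells, its spongiotrophoblast layer and its labyrinth of maternal and fetal exchange. In mice these cells secrete hormones and cytokines of the expanded Prl family and immunoglobulin-like Psg proteins, make lysosomal cysteine proteases related to cathepsin L, and express X-linked Rhox homeobox genes, some of which also act in germ cells and the gonads. None of these families is a known marker of midbrain neurons.

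The promoters of the genes that carry the description are shown first. RefSeq windows of 300 bases (250 before and 50 after the annotated start, build GRCm38.p6) were at hand for 38 of the 47 genes, not for Rhox6 and Rhox9. The first 3 are those of Ctsj, at chr13:61005876-61006175 (minus strand), Ctsq, at chr13:61040548-61040847 (minus strand), and Ctsr, at chr13:61164139-61164438 (minus strand), neighbours that were all higher in iPSC-derived cells. Capitals mark the runs of at least 10 bases that all 3 windows share.
Ctsj: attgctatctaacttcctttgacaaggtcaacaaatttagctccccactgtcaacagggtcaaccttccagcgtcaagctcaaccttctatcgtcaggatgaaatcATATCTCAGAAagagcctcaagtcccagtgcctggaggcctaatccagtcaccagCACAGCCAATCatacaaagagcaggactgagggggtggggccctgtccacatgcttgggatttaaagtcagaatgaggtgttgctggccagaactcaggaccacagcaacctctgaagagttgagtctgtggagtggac
Ctsq: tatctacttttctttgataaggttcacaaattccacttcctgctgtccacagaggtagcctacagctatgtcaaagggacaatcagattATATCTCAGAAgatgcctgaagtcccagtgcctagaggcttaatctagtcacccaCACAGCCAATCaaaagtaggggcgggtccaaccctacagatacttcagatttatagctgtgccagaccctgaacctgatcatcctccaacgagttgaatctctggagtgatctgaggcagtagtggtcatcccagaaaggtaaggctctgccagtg
Ctsr: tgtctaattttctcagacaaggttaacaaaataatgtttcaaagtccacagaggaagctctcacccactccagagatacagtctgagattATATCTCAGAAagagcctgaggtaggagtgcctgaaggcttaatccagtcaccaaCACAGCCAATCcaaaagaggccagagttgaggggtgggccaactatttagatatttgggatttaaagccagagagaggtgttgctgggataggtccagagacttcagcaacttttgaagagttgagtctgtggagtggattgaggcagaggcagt
The shared runs read ATATCTCAGAA and CACAGCCAATC. In pairwise alignments the windows of Ctsj and Ctsr were identical at 223 of 323 columns (69.0%), those of Ctsq and Ctsr at 62.6% and those of Ctsj and Ctsq at 61.4%.

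The other pair shown is Prl2c5, a proliferin gene, at chr13:13182466-13182765 (plus strand), and Prl7d1, the gene of proliferin-related protein, at chr13:27716688-27716987 (minus strand). Proliferins promote and proliferin-related protein inhibits the growth of blood vessels. The pair had the most alike windows among the higher genes, and capitals mark the bases not identical in the alignment.
Prl2c5: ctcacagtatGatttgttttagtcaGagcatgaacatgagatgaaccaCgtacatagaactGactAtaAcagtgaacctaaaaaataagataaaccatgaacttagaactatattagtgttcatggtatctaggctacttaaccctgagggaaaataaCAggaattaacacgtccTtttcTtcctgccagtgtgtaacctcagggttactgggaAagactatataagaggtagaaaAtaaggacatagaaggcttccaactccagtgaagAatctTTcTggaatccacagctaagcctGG
Prl7d1: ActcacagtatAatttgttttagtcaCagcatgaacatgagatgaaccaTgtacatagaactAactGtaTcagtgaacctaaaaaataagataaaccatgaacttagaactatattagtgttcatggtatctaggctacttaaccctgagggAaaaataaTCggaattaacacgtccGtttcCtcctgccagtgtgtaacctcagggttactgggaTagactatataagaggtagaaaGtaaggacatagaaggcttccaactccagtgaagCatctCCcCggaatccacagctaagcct
These windows were identical at 282 of 302 columns (93.4%), although the genes lie in separate stretches of the chromosome. The arrays gave a higher iPSC-derived level for both, by 3.24 for Prl2c5 and 1.32 for Prl7d1 on the log2 scale.

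The 38 windows held few CG dinucleotides. They had a median of 2.5 (0 to 9), against 7 for all 32851 RefSeq windows. At most 5 were held by 36 of the 38 and by 43.6% of all windows. That mark of 5 was itself taken from the group, as the highest count in the 11 windows of genes at least 1 higher in iPSC-derived cells. On either strand, TATAAA stood in 5 of the 38 windows (13.6% of all windows), the GATA motif AGATAA in 11 (11.2%), the TEAD motif GGAATG in 7 (14.7%), the AP-1 motif TGANTCA in 9 (7.81%), the STAT motif TTCNNNGAA in 8 (8.30%) and the AP-2 motif GCCNNNGGC in 1 (16.6%). A match describes letters and is no evidence of binding, and no motif here contains another.

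Levels are log2 values after RMA, as deposited, and array medians lay between 5.85 and 6.02. The lower quartile of an array, at 4.32 to 4.70, serves below as a mark of low signal, since no file gave a background level. Levels of different genes were not compared, because each probe set has its own brightness. The labelled identity was checked with 10 genes of midbrain dopaminergic neurons, all of which were lower in iPSC-derived than in primary cells. Th, for tyrosine hydroxylase of dopamine synthesis, was at 5.93, 5.29, 5.79, 5.56 and 9.22 on the treated arrays and 6.17, 5.75, 5.34, 5.90 and 8.52 on the control arrays, against stage means of 11.35 at E14.5 and 11.12 at E13.5. The arrays numbered 5 thus stood apart from the rest in both groups, and results that rest on them are given with and without them. The number of arrays sets the precision.

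In iPSC-derived cells, 9 of the 47 genes were higher than in primary cells by at least 1 on the log2 scale with no overlap between the 10 iPSC-derived and the 6 primary arrays, and 0 were lower. Among all genes 9.85% were higher and 7.14% lower by the same rule. Since this contrast chose the group, nothing is read from that count. The 9 genes were Rhox9, Rhox6, Ctsj, Ctsq, Ctsr, Prl8a9, Prl2a1, Prl8a6 and Plac8. Another 4 differed by at least 1 but overlapped on some array (Prl2c5, Rhox12, Psg27 and Prl7d1), which makes 13 genes, against 11.5% of all genes. The other 34 differed by less than 1, the nearest being Rhox13 at 0.96, while Prl7d1 lay just above that mark at 1.32. A filter on the dimmest 25% of genes by mean level kept 19 of the 47, among them these 13 without Psg27, and 28 stood below it. That mean was taken over iPSC-derived and primary arrays together, so passing does not speak for signal in primary cells. Ctsq, Prl2c5, Rhox12, Plac8, Prl8a6, Prl7d1 and Ctsj had primary means of 4.19 to 4.98, below the cut of 5.02. Rhox9, Rhox6, Ctsr, Prl8a9 and Prl2a1 had primary means above it. The median difference was 0.26 over the 47 genes and -0.10 over all genes. Without both arrays numbered 5, 13 genes stood clear of the primary arrays by at least 1: the 9 named first and Prl2c5, Prl7d1, Rhox12 and Rhox13, while Psg27 still overlapped.

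**Figure D1:**
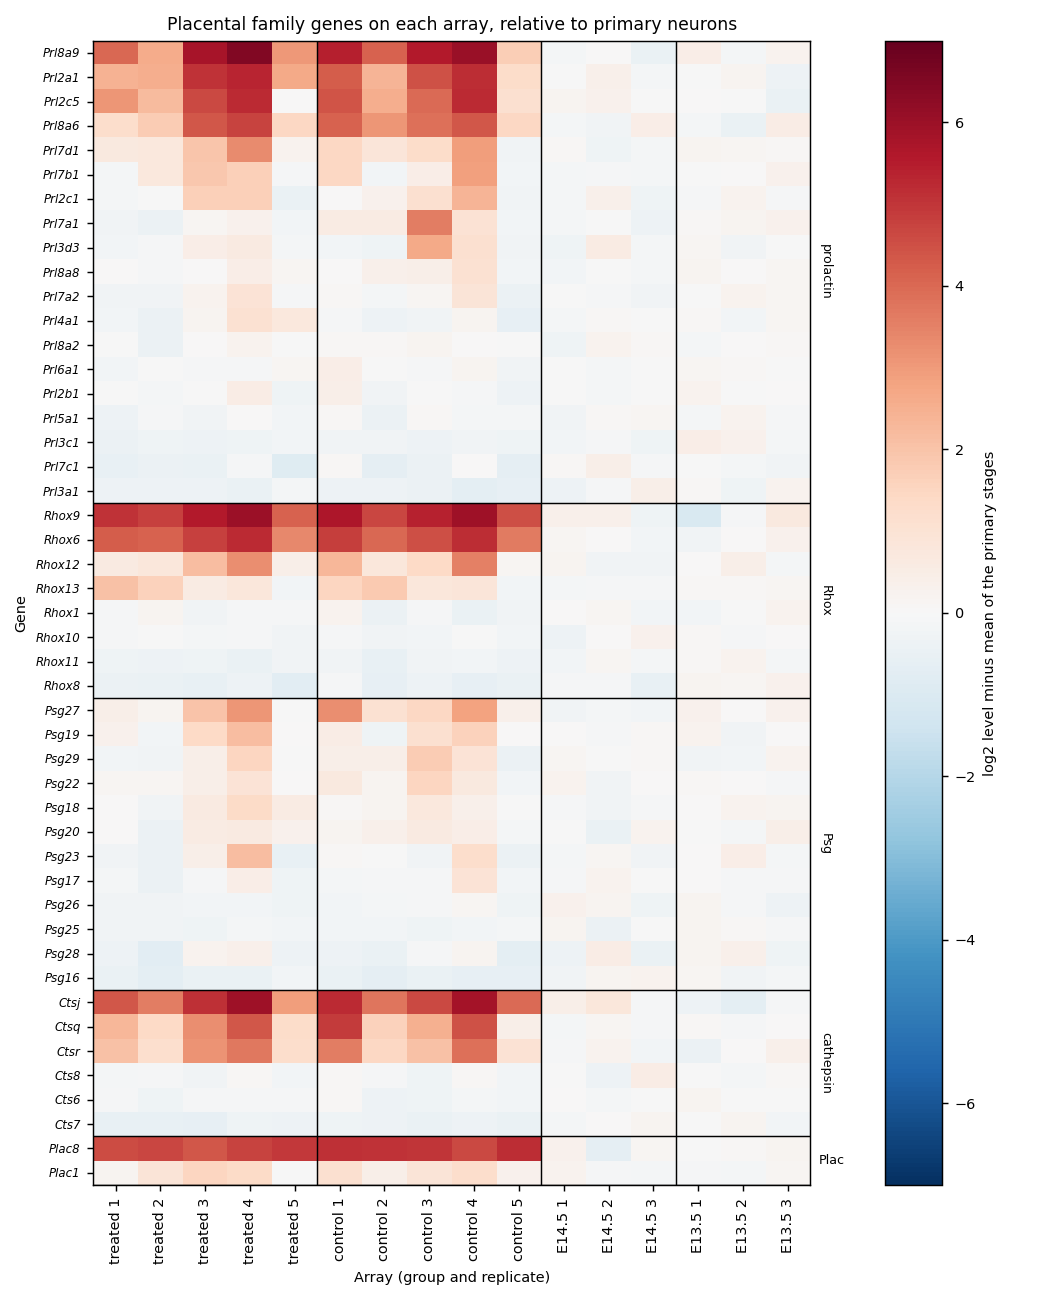
Level of each of the 47 genes on each of the 16 arrays as a colour, given as the log2 level minus the mean of the primary stages, with genes grouped by family and arrays by group. Strong colour is limited to some rows, Rhox9, Ctsj, Plac8 and Prl8a9 among them. Rhox9, Ctsj and Prl8a9 are strongest on treated array 4, and Plac8 on control array 5.

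Among the prolactin family, 3 of 19 genes stood clear of the primary arrays and 5 were at least 1 higher, with a family median of 0.23. Prl8a9, which encodes prolactin-like protein C beta, had levels of 9.10, 7.64, 10.85, 11.52 and 8.12 on treated arrays, 10.49, 9.19, 10.63, 11.09 and 6.81 on control arrays, 4.94, 5.09 and 4.59 at E14.5 and 5.51, 4.92 and 5.30 at E13.5. The lowest iPSC-derived array, control 5, was still above every primary array, and the means differed by 4.48, or 22.4-fold. Prl2a1, for prolactin-like protein M, was at 7.92, 8.06, 10.58, 10.83 and 8.16 in treated and 9.75, 7.87, 9.95, 10.70 and 6.80 in control cells, against 5.49, 5.84 and 5.37 at E14.5 and 5.49, 5.72 and 5.13 at E13.5, a difference of 3.56 (11.8-fold). Prl8a6, for prolactin-like protein C alpha, was at 5.71, 6.30, 8.87, 9.22 and 5.95 in treated and 8.60, 7.59, 8.35, 8.86 and 5.95 in control cells, against 4.38, 4.26 and 4.95 at E14.5 and 4.37, 4.03 and 5.00 at E13.5, a difference of 3.04 (8.24-fold). All 3 genes were highest on treated array 4, and none of their iPSC-derived arrays overlapped the primary ones.

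The proliferin gene Prl2c5 varied more. It was at 7.38, 6.51, 8.92, 9.52 and 4.31 on treated arrays and 8.70, 6.86, 8.24, 9.52 and 5.42 on control arrays, against 4.47, 4.60 and 4.25 at E14.5 and 4.35, 4.28 and 3.85 at E13.5. Treated array 5 fell within the primary range, the other 9 iPSC-derived arrays lay above it, and the mean difference was 3.24 (9.42-fold). Prl7d1, the antiangiogenic relative, was at 5.38, 5.45, 6.67, 8.01 and 4.94 on treated and 6.17, 5.57, 6.02, 7.66 and 4.45 on control arrays, against primary arrays of 4.44 to 4.89, so control 5 overlapped them and the difference was 1.32 (2.49-fold). Prl7b1, for prolactin-like protein N, was at 4.06, 4.94, 6.09, 5.84 and 4.09 on treated and 5.61, 3.98, 4.62, 7.06 and 3.99 on control arrays, against primary arrays of 4.07 to 4.49. Its iPSC-derived arrays overlapped the primary ones, with 6 of the 10 above that range and 4 within or just below it. The other 13 Prl genes differed by -0.39 to 0.63. They included Prl3d3, a gene of placental lactogen I, and Prl8a2, a prolactin-related gene of the maternal decidua, both at or below the lower quartile on most arrays and named after their values were seen.

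In the Rhox family, 2 of 8 genes stood clear of the primary arrays and 3 were at least 1 higher, with a family median of 0.42. Rhox9, a homeobox gene first described in the placenta as Psx2, had the largest difference of the 47 genes. It was at 11.10, 10.85, 11.57, 12.02 and 10.18 on treated arrays, 11.72, 10.70, 11.45, 11.98 and 10.57 on control arrays, 6.42, 6.39 and 5.76 at E14.5 and 4.97, 5.98 and 6.74 at E13.5, and the difference was 5.17 (36.1-fold). Its close relative Rhox6, known as Psx1, was at 10.65, 10.54, 11.21, 11.65 and 9.79 on treated arrays, 11.25, 10.45, 10.89, 11.55 and 10.03 on control arrays, 6.54, 6.45 and 6.19 at E14.5 and 6.15, 6.42 and 6.68 at E13.5, a difference of 4.39 (21.0-fold). For both, every iPSC-derived array was more than 3 log2 units above the highest primary array, and the 10 arrays stood in the same order.

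Rhox12 was at 5.05, 5.20, 6.58, 7.67 and 4.83 on treated arrays and 6.75, 5.20, 5.81, 7.92 and 4.54 on control arrays, against primary arrays of 4.16 to 4.81, a difference of 1.54 (2.91-fold) with control array 5 inside the primary range. Rhox13, a gene of mouse germ cells, was at 6.76, 6.29, 5.30, 5.50 and 4.52 on treated and 6.22, 6.52, 5.50, 5.52 and 4.49 on control arrays, against primary arrays of 4.59 to 4.82. It was highest on the arrays numbered 1 and 2 rather than 4, and both arrays numbered 5 lay below all primary arrays. Rhox8, a gene of testicular Sertoli cells, differed by -0.46 and Rhox11 by -0.32, both below the array medians in all groups, and Rhox1 and Rhox10, named after their values were seen, differed by -0.13 and -0.14. Rhox8, which lies between Rhox6 and Rhox9 on the X chromosome, was thus not higher with its neighbours.

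Of the 12 Psg genes, which encode secreted relatives of carcinoembryonic antigen, 0 stood clear of the primary arrays and 1 was at least 1 higher, with a family median of 0.23. Psg27 was at 4.44, 4.22, 6.05, 7.12 and 4.00 on treated arrays and 7.30, 5.13, 5.51, 6.85 and 4.41 on control arrays, against 3.79, 3.88 and 3.85 at E14.5 and 4.36, 4.05 and 4.33 at E13.5, a difference of 1.46 (2.75-fold). The arrays numbered 4 and control array 1 stood highest, and treated arrays 2 and 5 lay within the primary range. Psg19 was at 4.26, 3.74, 5.36, 6.13 and 3.97 on treated and 4.48, 3.65, 5.07, 5.58 and 3.97 on control arrays, against primary arrays of 3.71 to 4.18, again highest on treated array 4. Psg16, which mouse brain is known to express, differed by -0.50 and lay between 3.50 and 4.01 on all iPSC-derived arrays. Of the 12 genes, 8 were below the lower quartile on all 6 primary arrays, against 12.3% of all genes, so that most primary Psg values were low signal.

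Among the 6 cathepsin genes, 3 stood clear of the primary arrays and the family median was 1.11. Ctsj, for cathepsin J, had levels of 9.31, 8.56, 10.08, 10.88 and 7.90 on treated arrays, 10.22, 8.73, 9.60, 10.78 and 8.93 on control arrays, 5.38, 5.75 and 4.90 at E14.5 and 4.61, 4.31 and 4.90 at E13.5, a difference of 4.52 (23.0-fold). Ctsq was at 6.51, 5.59, 7.47, 8.54 and 5.50 on treated and 9.10, 5.79, 6.69, 8.66 and 4.60 on control arrays, against primary arrays of 4.08 to 4.30, a difference of 2.65 (6.29-fold). Ctsr was at 7.31, 6.44, 8.42, 9.00 and 6.51 on treated and 8.86, 6.72, 7.31, 9.16 and 6.28 on control arrays, against primary arrays of 4.90 to 5.66, a difference of 2.32 (4.98-fold). All 3 were clear of the primary arrays on every iPSC-derived array, with control array 5 of Ctsq closest to them. Cts6, Cts7 and Cts8, named after their values were seen, differed by -0.15, -0.42 and -0.09.

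Plac8, a small cysteine-rich protein gene of placenta, myeloid cells and epithelia, had levels of 9.07, 9.16, 8.83, 9.22 and 9.43 on treated arrays, 9.58, 9.53, 9.50, 9.08 and 9.64 on control arrays, 4.76, 3.87 and 4.62 at E14.5 and 4.44, 4.54 and 4.66 at E13.5. The difference was 4.82 (28.3-fold), and the 10 iPSC-derived arrays lay within 0.82 log2 units of each other. Plac1, an X-linked trophoblast gene needed for placental growth, was at 4.89, 5.60, 6.21, 6.03 and 4.69 on treated and 5.84, 5.11, 5.60, 5.91 and 4.98 on control arrays, against primary arrays of 4.54 to 4.97, a difference of 0.79 with overlap on some arrays. Prl7a1, for prolactin-like protein E, was one of 4 genes chosen to mark the group and was far higher on 1 array than on the rest. It was at 3.75, 3.60, 4.13, 4.27 and 3.78 on treated and 4.54, 4.55, 7.59, 5.01 and 3.82 on control arrays, against primary arrays of 3.60 to 4.27. Control array 3 was the highest, and control arrays 1, 2 and 4 also lay above every treated and every primary array. The difference was 0.52 over all 10 iPSC-derived arrays and -0.08 over the treated arrays alone.

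Position within the gene clusters was set beside these differences. In the gene order of GRCm38.p6, Ctsj, Ctsq and Ctsr follow one another with 0 protein-coding genes between them, and Cts6, Cts8 and Cts7 come after them. The higher genes and those that differed by less than 1 thus fell on separate sides of the measured cathepsin row. In the Prl cluster the higher genes did not form one block: Prl8a6 and Prl8a9 lie on either side of Prl8a8 (0.23), and Prl2a1 lies between Prl7c1 (-0.39) and Prl2c1 (0.63). Prl2c5 belongs to a separate run of proliferin genes, 175 protein-coding genes away from the main Prl cluster. The Prl genes named here only for their place were chosen after their values were seen.

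**Figure D2:**
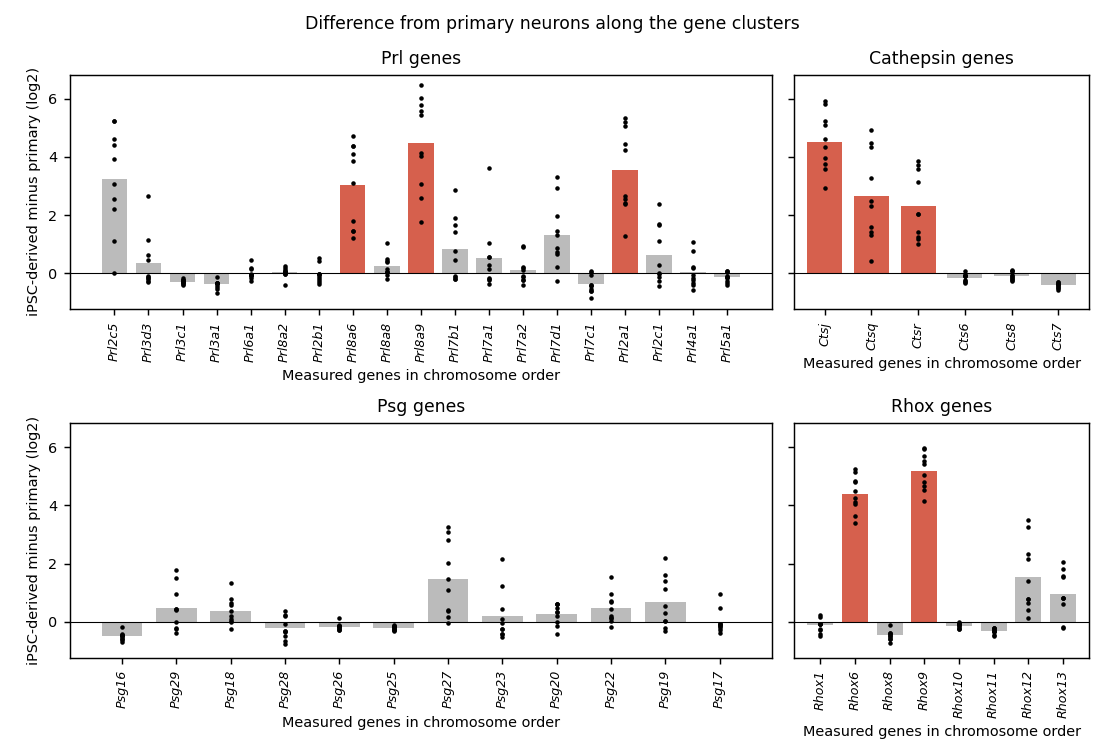
Difference in log2 level between iPSC-derived and primary cells for the measured genes of each family, in chromosome order; bars are the mean of 10 iPSC-derived arrays minus the mean of the 2 primary stages, and points are the single iPSC-derived arrays minus that primary mean. Red bars are genes clear of all primary arrays by at least 1, such as Ctsj at 4.52, and grey bars are the others, such as Cts7 at -0.42.

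WNT1 and DKK3 treatment was compared with control in the iPSC-derived cells, a contrast that had no part in choosing the genes. With limma over all 19938 genes, 0 of the 47 genes passed an adjusted p of 0.05, as did 0% of all genes, and the smallest adjusted p of any gene was 0.753. An unadjusted p under 0.05 was reached by 1 of the 47 genes, Plac8, and by 300 of all genes (1.5%). The differences of the 47 genes ran from -1.19 to 0.50 with a median of -0.07, against 0.02 over all genes, with 33 negative and 14 positive. Their median standard error was 0.27, against 0.12 over all genes, so the test was less able to see a change in this group than in most genes.

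The gene with the smallest unadjusted p was Plac8, at 9.14 ± 0.22 in treated and 9.47 ± 0.22 in control cells (SD, n = 5 each). Its difference was -0.33 with a 95% interval of -0.62 to -0.03 and limma's adjusted p = 1, so that it did not pass. On 4 of 5 control arrays Plac8 was above every treated array, the exception being control array 4. The next was Prl7a1, with 3.91 ± 0.28 in treated and 5.10 ± 1.46 in control cells, a difference of -1.19 (-2.45 to 0.06, limma adjusted p = 1). Without control array 3 that difference was -0.57 (limma unadjusted p = 0.032, against 0.060 with it). Control arrays 1 to 4 all lay above every treated array. Prl4a1, for prolactin-like protein A, which acts on uterine natural killer cells in mice, was at 5.01, 4.79, 5.37, 6.25 and 5.94 on treated and 5.12, 4.84, 4.93, 5.39 and 4.61 on control arrays, a difference of 0.50 (-0.09 to 1.08, limma adjusted p = 1). That difference was 0.30 without treated array 4 and 0.29 without both arrays numbered 5. Its treated and control arrays overlapped, with treated arrays 4 and 5 above all control arrays. Prl3a1, Psg26 and Psg16 followed with differences of 0.14, -0.11 and 0.10 at low levels. Single arrays weighed on these as well: without control array 4 the differences were 0.08 for Prl3a1 and -0.05 for Psg26, and without treated array 5 that of Psg16 was 0.03. None of the 6 passed.

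For the genes most raised in iPSC-derived cells the intervals were wide. The treated minus control difference was -0.14 (-0.94 to 0.66) for Rhox9, -0.31 (-1.55 to 0.93) for Ctsj, -0.19 (-2.24 to 1.85) for Prl8a9 and -0.42 (-2.64 to 1.79) for Prl2c5. Treated and control arrays overlapped for each, and a missed threshold does not show that their levels were alike.

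**Figure D3:**
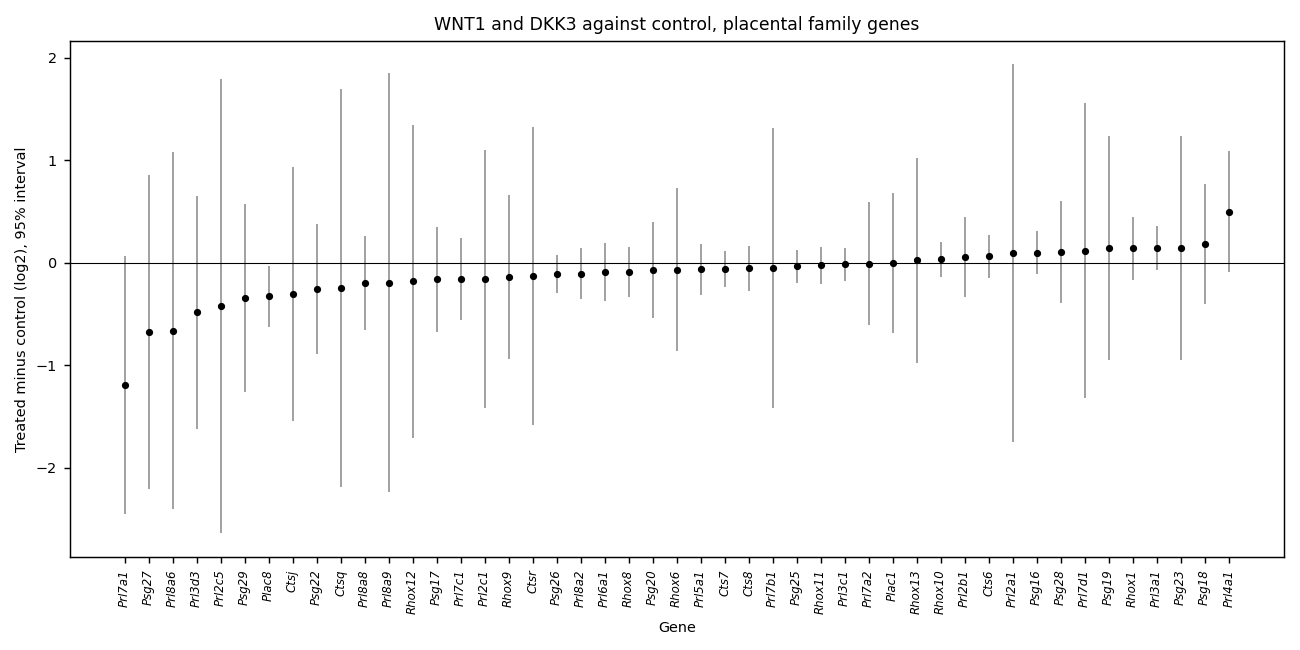
Treated minus control difference in log2 level for each of the 47 genes, ordered by size; points are differences of means (5 arrays each) and lines are limma's 95% intervals. The interval of Plac8 alone lies off 0, at -0.62 to -0.03, and the intervals of Prl8a9, Prl2c5 and Ctsq are among the wide ones.

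Primary cells of the 2 stages were set side by side without a test, since each stage was 1 sample. By the rule of a difference of at least 1 and no overlap of the technical arrays, 0 of the 47 genes differed, against 0.241% of all genes. Ctsj had the largest difference, 0.74, with means of 5.34 at E14.5 and 4.61 at E13.5, and its highest E13.5 array lay just under its lowest E14.5 array. Rhox9 and Prl7c1 were next, at 0.29 and 0.29. On the other side stood Rhox8 at -0.45, Psg27 at -0.41 and Prl3c1, a prolactin-like gene of the decidua, at -0.39. The technical arrays of 1 stage themselves differed widely for some genes, as for Rhox9 at E13.5 (4.97, 5.98 and 6.74).

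The raised genes varied from one iPSC-derived array to the next, within treated and within control cells alike. Over the 10 arrays, 18 of the 47 genes had a range of at least 2 log2 units, against 3.08% of all genes. The median range was 1.52 over the 47 genes and 0.63 over all genes. Of the 13 genes at least 1 higher than primary, 10 were highest on an array numbered 4, 7 of them on treated 4 and 3 on control 4, as were 21.5% of all genes. On an array numbered 5, 11 of the 13 were lowest, as were 28% of all genes. These 13 were chosen by their high iPSC-derived means, so the counts are a description. Of all 47 genes, 27 were highest on an array numbered 4 and 25 were lowest on an array numbered 5. Prl8a9 ranged over 4.72 log2 units, Prl2c5 over 5.21, Ctsq over 4.50 and Ctsj over 2.99, whereas Rhox9 ranged over 1.84 and Plac8 over 0.82.

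The arrays split by this measure. Of the 13 genes, 12 were above their own 10-array median on treated 3, treated 4, control 3 and control 4, and 13 on control 1. At most 1 was above it on treated 1, 2 and 5 and on control 2 and 5. Among all genes, the share above their own median ran from 44.3% on control 2 to 55.2% on treated 4. The median deviation of the 13 genes was 1.69 on treated 4 and 1.53 on control 4, against -1.09 on treated 5 and -1.03 on control 5. Plac8 did not follow: it was highest on control 5.

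Some markers of trophoblast had a like order of arrays and others did not. Of the 12 genes on the trophoblast stem list, 7 were highest on an array numbered 4 and 5 were lowest on an array numbered 5. Of the 20 on the differentiated trophoblast list, these counts were 12 and 10, and of the 13 on the endoderm list 6 and 3. The order was not particular to these lists. The counts were 7 and 8 of 8 simple epithelium genes, 10 and 6 of 14 Ceacam and Cd9 genes, and 9 and 5 of 15 other cathepsin genes. They were 1 and 12 of 12 pluripotency genes, 0 and 8 of 8 germline genes, and 2 and 0 of 10 dopaminergic genes. Tpbpa, a marker of spongiotrophoblast, was at 7.44, 7.09, 9.54, 9.78 and 6.94 on treated and 9.05, 7.85, 9.35, 9.44 and 6.56 on control arrays. Hand1, a transcription factor of trophoblast giant cells that was chosen after its values were seen, was at 8.16, 7.78, 9.15, 9.62 and 7.09 on treated and 9.26, 7.67, 8.64, 9.58 and 7.26 on control arrays. Both were highest on an array numbered 4 and lowest of their group on the arrays numbered 5, where Th was high and the pluripotency gene Nanog was at its lowest (6.40 on treated 5 and 6.42 on control 5, at least 8.42 elsewhere). Adm, the adrenomedullin gene of giant cells, also chosen after its values were seen, had the other order, with 8.64 on treated 5 and 8.55 on control 5, against 7.32 on treated 4 and 7.30 on control 4. The endoderm list had a partly like order of arrays, with a mean level of 8.05 on treated 4 and 8.05 on control 4, against 7.40 on treated 5 and 7.37 on control 5, and its lowest, 7.29, on treated 1. In bulk RNA, fewer cells of a type and less RNA per cell cannot be told apart, and the part of trophoblast or endoderm cells in the levels of the 47 genes was not tested.

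**Figure D4:**
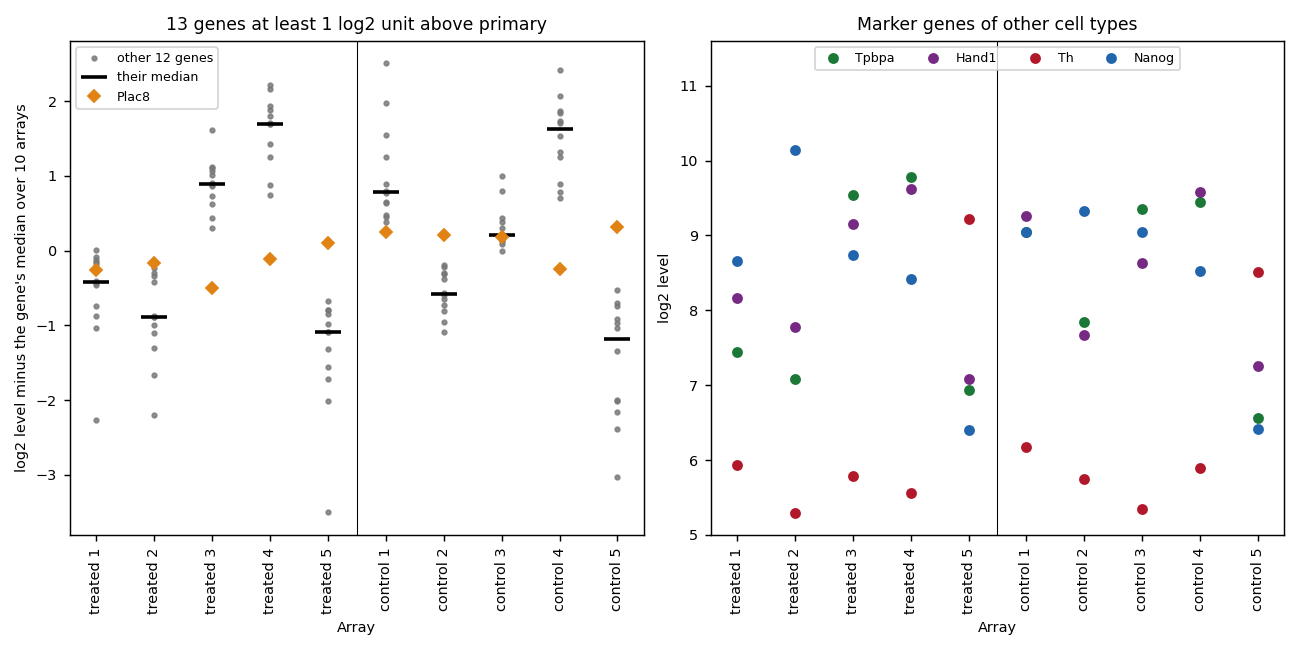
Left, log2 level of the 13 genes at least 1 above primary, minus each gene's median over the 10 iPSC-derived arrays (grey points for 12 genes, bars for their median, orange diamonds for Plac8); right, log2 level of 4 marker genes on the same arrays. The 12 genes were high on the arrays numbered 3 and 4 and on control 1 and low on treated 1 and those numbered 2 and 5, as Tpbpa and Hand1 were, while Plac8 stayed within 0.82.

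The 4 marker genes of the group were set against each other over the 10 iPSC-derived arrays, 6 relations in all, with two-sided permutation tests of 100000 resamples and adjustment over the 6. Rhox9 and Ctsj varied together, with Pearson's r of 0.976 (permutation p = 2e-05, adjusted p = 0.00012) and Spearman's rho of 0.952 (permutation p = 0.00012, adjusted p = 0.00072). Without the arrays farthest from the median of Rhox9, treated 4 and treated 5, r was 0.954, and without both arrays numbered 5 it was 0.985. Plac8 did not share this pattern. Its r was -0.398 with Rhox9 (permutation p = 0.25, adjusted p = 0.504; rho -0.345, permutation p = 0.332, adjusted p = 0.499) and -0.377 without the same arrays. For the other 4 pairs r lay between -0.355 and 0.361, rho between -0.2 and 0.539, and no pair passed, with adjusted p from permutation of 0.504 to 0.558 for r. Treated and control arrays of equal number deviated alike for numbers 2 to 5, so the 10 arrays may not all be independent and these p may be too small.

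**Figure D5:**
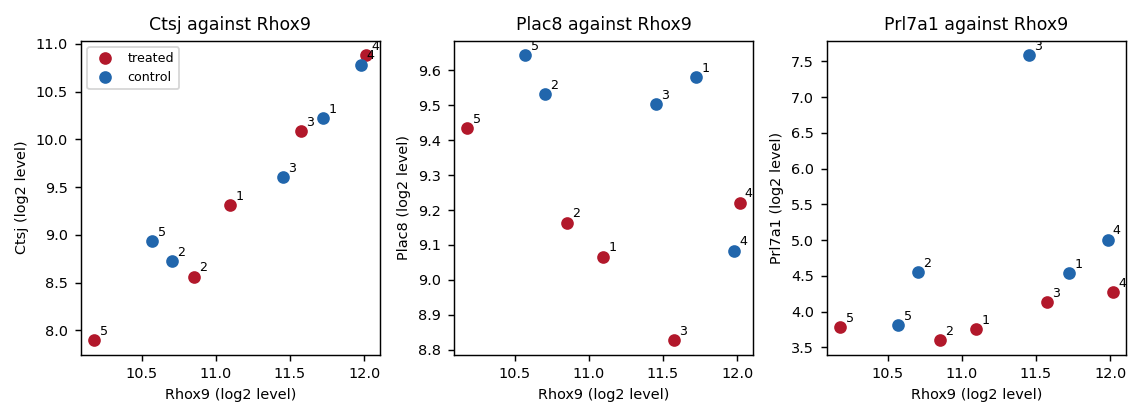
Log2 levels of Ctsj, Plac8 and Prl7a1 against Rhox9 on the 10 iPSC-derived arrays, red for treated and blue for control, numbered by replicate. Ctsj climbs with Rhox9 along a line (r = 0.976), Plac8 does not (r = -0.398), and Prl7a1 is set apart by control array 3 at 7.59.

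Other genes of the same cell types and pathways were counted with limma, iPSC-derived against primary, with both stages as the primary samples. Over 14 lists with 152 measured genes, 48 genes were higher and 22 lower, against 21.2% and 24.7% of all genes. Of 20 differentiated trophoblast genes, 7 were higher, 1 lower and 12 did not pass, with a list median of 0.55. Nrk, a kinase gene of spongiotrophoblast, was higher by 4.95 (SE 0.59) and Tpbpa by 4.13 (SE 0.83). The mean level of the list was 6.55 to 7.45 on treated and 6.38 to 7.40 on control arrays, against 5.66 to 5.82 at E14.5 and 5.68 to 5.88 at E13.5. Every iPSC-derived array was above every primary array on that measure. The same held for the trophoblast stem, endoderm, simple epithelium, primordial germ cell, prolactin signalling, other cathepsin, Ceacam and germline lists counted below. It did not hold for the pluripotency, Sertoli, myeloid, methylation machinery and dopaminergic lists.

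Of 12 trophoblast stem and lineage factors, 5 were higher, 0 lower and 7 did not pass, with a median of 0.91. Fgfr2, the receptor through which FGF4 maintains trophoblast stem cells, was higher by 2.39 (SE 0.21), and Tfap2c, a transcription factor of that lineage, by 2.25 (SE 0.49). The mean level of the list was 6.49 to 7.21 on treated and 6.45 to 7.14 on control arrays, against 5.71 to 6.01 at E14.5 and 5.91 to 6.10 at E13.5. The defining stem cell factors Cdx2, Eomes and Elf5, named after their values were seen, did not pass, with differences of -0.08, 0.12 and -0.29. Against E14.5 alone, 3 of the 12 were higher.

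Cells that share some of these genes were checked in the same way. All 8 simple epithelium genes were higher (median 3.66), with the keratin genes Krt18 at 5.61 (SE 0.44) and Krt19 at 5.11 (SE 0.58). Of 13 visceral and parietal endoderm genes, 4 were higher, 0 lower and 9 did not pass, with a list median of 0.48. The higher ones were led by the transthyretin gene Ttr at 6.72 (SE 0.17) and the matrix gene Sparc at 4.21 (SE 0.12). The 9 differed by -0.30 (Hnf4a) to 1.19 (Gata6), with Afp at 0.15, and these 3 were named after their values were seen. Of 8 myeloid genes, 1 was higher, Csf1r at 2.14 (SE 0.66), a receptor that trophoblast is also known to express, and 3 were lower, among them Tyrobp at -0.95 (SE 0.14). The mean level of the myeloid list was 4.95 to 5.36 on treated and 4.99 to 5.43 on control arrays, against 5.21 to 5.36 at E14.5 and 4.85 to 5.34 at E13.5, so the groups overlapped. The part of any of these cells in the level of Plac8 was not tested.

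Germ cells are known to express some Rhox genes too, and pluripotent cells were the source of the cultures. Of 7 primordial germ cell genes, 1 was higher, Ifitm3 at 6.72 (SE 0.31), and 1 lower, and Dppa3 at 2.70 (SE 1.06) did not pass. Without treated or control array 5 the higher count was 2, and without both it was 3. Of 12 pluripotency genes, 2 were higher and 1 lower, and Dppa5a at 2.92 (SE 1.32) and Tdgf1 at 2.64 (SE 1.03) did not pass. Without both arrays numbered 5, 10 of the 12 were higher, with 8 when treated array 5 alone and 10 when control array 5 alone was left out. Leaving out 1 of treated 3, control 1 or control 3 left 1 higher. Of 5 Sertoli and granulosa cell genes, 0 were higher and 1 lower, Inha at -0.79 (SE 0.24), while Amh differed by -0.22 (SE 0.15) and did not pass.

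Genes tied to the 4 families by function were counted next. Of 9 prolactin receptor and signalling genes, 3 were higher and 1 lower, with the growth hormone receptor gene Ghr at 3.15 (SE 0.20) and the feedback inhibitor gene Socs3 at 1.32 (SE 0.35), and the receptor gene Prlr was not analysed here. Of 15 other cathepsin and cathepsin inhibitor genes, 11 were higher and 1 lower (median 1.98), led by Ctsk at 3.40 (SE 0.32), a collagen-cleaving protease of bone, and Ctsl at 2.72 (SE 0.22), the lysosomal protease to which the placental cathepsins are related. Higher levels among cathepsins were thus not limited to the placental genes. Of 14 genes of the Ceacam relatives of Psg and the Psg receptor Cd9, 1 was higher, Cd9 at 3.83 (SE 0.31), and 1 lower, while Ceacam11 at 1.11 (SE 0.62) did not pass.

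Some placental genes, Rhox genes among them, are known to be silenced by DNA methylation in the mouse embryo. Of 8 germline genes silenced that way, 4 were higher and 0 lower (median 2.25), led by Tex19.1 at 3.31 (SE 0.35) and the RNA-binding protein gene Dazl at 2.88 (SE 1.02). Without both arrays numbered 5, 7 of the 8 were higher, and against either stage alone 1 was. Of 11 genes of the methylation machinery, 2 were lower and 1 higher, Dnmt3l, a cofactor of new methylation, at 1.79 (SE 0.67), a call lost when any 1 of treated 1, 3 and 4 or control 1 to 4 was left out, while Hells at 2.25 (SE 0.93) did not pass. Without both arrays numbered 5, 4 of the 11 were higher. Methylation itself was not measured. Between treated and control cells, 0 of the 152 list genes passed with limma, and 1 had an unadjusted p under 0.05.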

How the data were processed

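The deposited values of the 16 arrays are log2 levels of 35556 probe sets, made by the authors with RMA (background correction, quantile normalization, probe summary) and Affymetrix Expression Console 1.2, per the submitters' processing notes, which give no order. Whether all arrays were normalized together, and the build of the probe table, are not given in the sources used here. RNA was, per the labels' protocols, amplified from small amounts before labelling, which can add spread between arrays. RMA sets levels relative to each array, so a change in total RNA is not seen.

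The platform's probe table lists 23410 probe sets, 21789 with 1 gene symbol and 1621 with several, and 12146 are unlisted. Symbols of 21698 were updated by Entrez ID through a RefSeq gene table (GRCm38.p6). Genes with several probe sets kept the one with the highest mean. Of the families, 48 probe sets had 1 symbol (Psg20 had 2) and 6 had several and were left out, which removed Prl2c2, Prl2c3, Psg21, Cts3 and Ctsm. Probe sequences were not used, so signal from near-identical copies of these genes cannot be told apart.

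Treated and control arrays (5 each) were compared with limma 3.58.1 in R 4.3.3 (lmFit, eBayes), with Benjamini-Hochberg adjustment over 19938 genes and a threshold of 0.05. Lists were tested in 3 groups with each stage's 3 technical arrays averaged to 1 sample. The fits were tested on simulated arrays drawn independently of each other. Such data cannot show how the fits behave where equal-numbered arrays deviate alike. Whether biological replicates came from separate cultures was not given, so each p-value reflects only the spread among these arrays, which may be technical. Promoters were aligned with Biopython 1.88. The members, the 14 lists and the marker genes were chosen with earlier results of these data known. Named were the 4 marker genes, the members with the largest differences in each family (6 for Prl and Rhox, 3 for the others), the 6 with the smallest treated against control p, the 3 with the largest stage difference in each direction and the 2 leading genes of each list. Alternatives were other probe set rules, recentred arrays, a filter on the dimmest 25% of genes, an intensity trend, a replicate block, each stage alone, other difference minimums and leaving out arrays. Recentring and averaged probe sets for the variation between arrays were added after seeing the data.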

Additional observations from a re-analysis of the deposited data

Results flagged for a closer look

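Of 48 groups of 5 arrays examined (24 named genes in treated and in control cells), 1 held an array far from the others by Dixon's criterion. Plac8 on control array 4, at 9.08, lay below the other 4 control arrays, the nearest of which was at 9.50, and the gap was 0.749 of the group's range. Chance gives such a mark in about 1 of 20 groups. Without control array 4 the treated minus control difference of Plac8 was -0.42, against -0.33 with it.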

How the results depend on the processing

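No member or list gene passed between treated and control cells with limma under any of the 16 alternatives, and the 6 members named there kept their direction. The difference of Prl7a1 between iPSC-derived and primary cells was 0.52 over all arrays but -0.08 with treated arrays only, where its sign turned. Labels give treated and control arrays the same numbers without calling them pairs, and deviations of equal-numbered arrays correlated at 0.520, 0.435, 0.718 and 0.798 for numbers 2 to 5 but at 0.045 for number 1. With the replicate number as a block, 0 members passed, 3 members instead of 1 and 834 genes instead of 300 had an unadjusted p under 0.05, and 1 gene passed. The members with such a p numbered 2 without both arrays numbered 5 and 0 to 1 when single arrays were left out (0 without treated 1 or 3 or control 1 or 2). Members clear of all primary arrays numbered 9 to 11 when 1 iPSC-derived array was left out, 10 against E14.5 alone, 11 in treated or control arrays alone and 13 without both arrays numbered 5. Against E13.5 alone, 12 list genes were lower instead of 22. Over the 14 lists, 60 of 448 other counts moved by more than 1.5 times: without treated 4 the Ceacam list had 2 lower, without control 1 the Sertoli list had 2 lower, and without control 2 the trophoblast stem list had 1 lower. The 1 lower pluripotency gene was lost without treated 1, treated 2, control 1 or control 2. Between stages, a minimum difference of 0.5 gave 1 member, Ctsj. Among iPSC-derived minus primary differences, 2 of 371 moved by more than the spread, both of Rhox8 (-0.69 against E13.5 and -0.24 against E14.5). The cause was not tested. Low signal limits 12 members, below the lower quartile on all 16 arrays (10.5% of all genes), and no file gives a background. On all 6 primary arrays 23 of the 47 were below it (12.3% of all genes), Ctsq among them. The fold differences of such genes rest on low primary signal.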

Other observations

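Among the 47 genes, 4 were highest on control array 3 instead of an array numbered 4: Prl7a1, Prl3d3, Psg29 and Psg22. They were chosen after their values were seen. Signal was often low, with Prl3d3, Psg22 and Prl7a1 below the lower quartile on 14, 13 and 12 of the 16 arrays. Of all genes, 4.48% were highest on control array 3. Prl3d3, a gene of placental lactogen I, a hormone of trophoblast giant cells, was at 6.18 there and at most 4.68 on every other array. Psg22 was at 5.28 there and at most 4.70 elsewhere, and Psg29 was at 6.54 against at most 6.26. Prl7a1 was at 7.59 against at most 5.01. Tpbpa was at 9.35 on that array, within its range on the other iPSC-derived arrays.

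Rhox13, whose difference of 0.96 fell short of 1, had another order of arrays than the raised Rhox genes. It was at 6.22 or more on the arrays numbered 1 and 2 of both groups and at most 5.52 on the others. The meiotic gene Sycp3 and the germline gene Mael, both chosen after their values were seen, split the arrays the same way. Among the 8 germline genes silenced by methylation, Slc25a31 did so too, while Dazl, Ddx4, Tex19.1, Hormad1 and Taf7l did not. The split was not particular to that list. Dppa5a of the pluripotency list and Dppa3 of the primordial germ cell list, also chosen after their values were seen, had it too. Dppa5a was at 10.5 or more on the arrays numbered 1 and 2 and at most 10.4 on the others, and Dppa3 at 8.11 or more and at most 7.88. The other genes of those lists did not split the arrays so. Sycp3 was at 7.89 or more on those 4 arrays and at most 7.23 on the other 6 iPSC-derived arrays. Mael was at 6.74 or more on the 4 arrays and at most 6.31 on the other 6. Rhox12, by contrast, was highest on the arrays numbered 4, at 7.67 on treated 4 and 7.92 on control 4.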
